A study of Arabidopsis thaliana with 8 samples.

Results

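The genes described here were close to silent in root tips of Arabidopsis thaliana kept at 22 °C and gave reads in every root tip library after 48 h at 30 °C. They were chosen from the deposited table of normalised read counts, in which the reads of a gene are divided by a size factor of the library. The rule took genes with a control mean below 2 and a value above 0 in every high temperature library. Of 23632 genes with a value, 672 (2.84%) met both limits, and the 100 with the highest mean at high temperature are the members. Their low control values and their order at high temperature were therefore set by the choice, so the difference of a member between the temperatures is described without a test.

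The high temperature group was Col-0 seedlings moved to 30 °C when 5 days old and held there for 48 h, and the control group was Col-0 seedlings of the same age that stayed at 22 °C. Both were wild type, grew on agar plates in long days and gave 4 libraries of poly(A) RNA from the outermost 1 mm of the root, each from 50 pooled seedlings of 5 plates. The labels give 4 biological replicates a group where the study's methods give 3, and all 8 libraries were used. The libraries held 38216649 to 41833843 reads in genes at high temperature and 38396646 to 40750937 in the control. The segment holds many cell types, and in such bulk RNA fewer cells of a type cannot be told apart from less RNA per cell.

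The listed markers of the root cap (6 genes) summed to 6064 to 6459 normalised reads at high temperature and 5531 to 6501 in the control, with none of the 6 called at the thresholds given below. Markers of root hairs summed to 28.1 to 64.8 at high temperature and 586 to 1264 in the control (5 of 5 lower), and those of green tissue to 10.3 to 18.4 and 163 to 192 (4 of 4 lower). Markers of phloem summed to 406 to 480 at high temperature and 211 to 290 in the control (2 of 3 higher), those of the differentiating endodermis to 223 to 496 and 166 to 237 (1 of 7 higher). Markers of the meristem and stem cell niche summed to 7873 to 8288 at high temperature and 7271 to 7770 in the control (2 of 5 higher), and those of xylem to 1251 to 1637 and 1183 to 1651 (1 of 7 higher and 2 lower). Of the seed markers 1 of 4 had a value, at 0 in every high temperature library, and none of the 3 pollen markers had one. The part of these shifts in the members' values was not tested.

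Mild heat makes plant cells build chaperones, among them the small heat shock proteins, whose genes are read by heat shock factors. When mitochondria fail to work properly, plant cells also switch on a set of nuclear genes through membrane-bound NAC transcription factors, NAC013 and NAC017. These bind the mitochondrial dysfunction motif, which reads CTTG and CAAG, or CTTG and CACG, with 5 free bases between. DUF295 is a protein domain of unknown function that has spread into a large gene family in Arabidopsis and its relatives, and some of the family's proteins are sent to organelles.

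The members ranged in mean at high temperature between 16.4 and 864 normalised reads, with a median of 32.9, and 22 of them exceeded 100. By read number, which also grows with transcript length, 2 of the 100 lay above the median of the tested genes at high temperature (511). On the scale corrected for transcript length and depth (FPKM, as deposited) the members reached 0.119 to 14.0 FPKM at high temperature, and 39 had at least 1 FPKM. The first 3 genes, all of the DUF295 family, held 26.1% of the members' summed means and the first 10 held 46.8%.

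**Figure D1:**
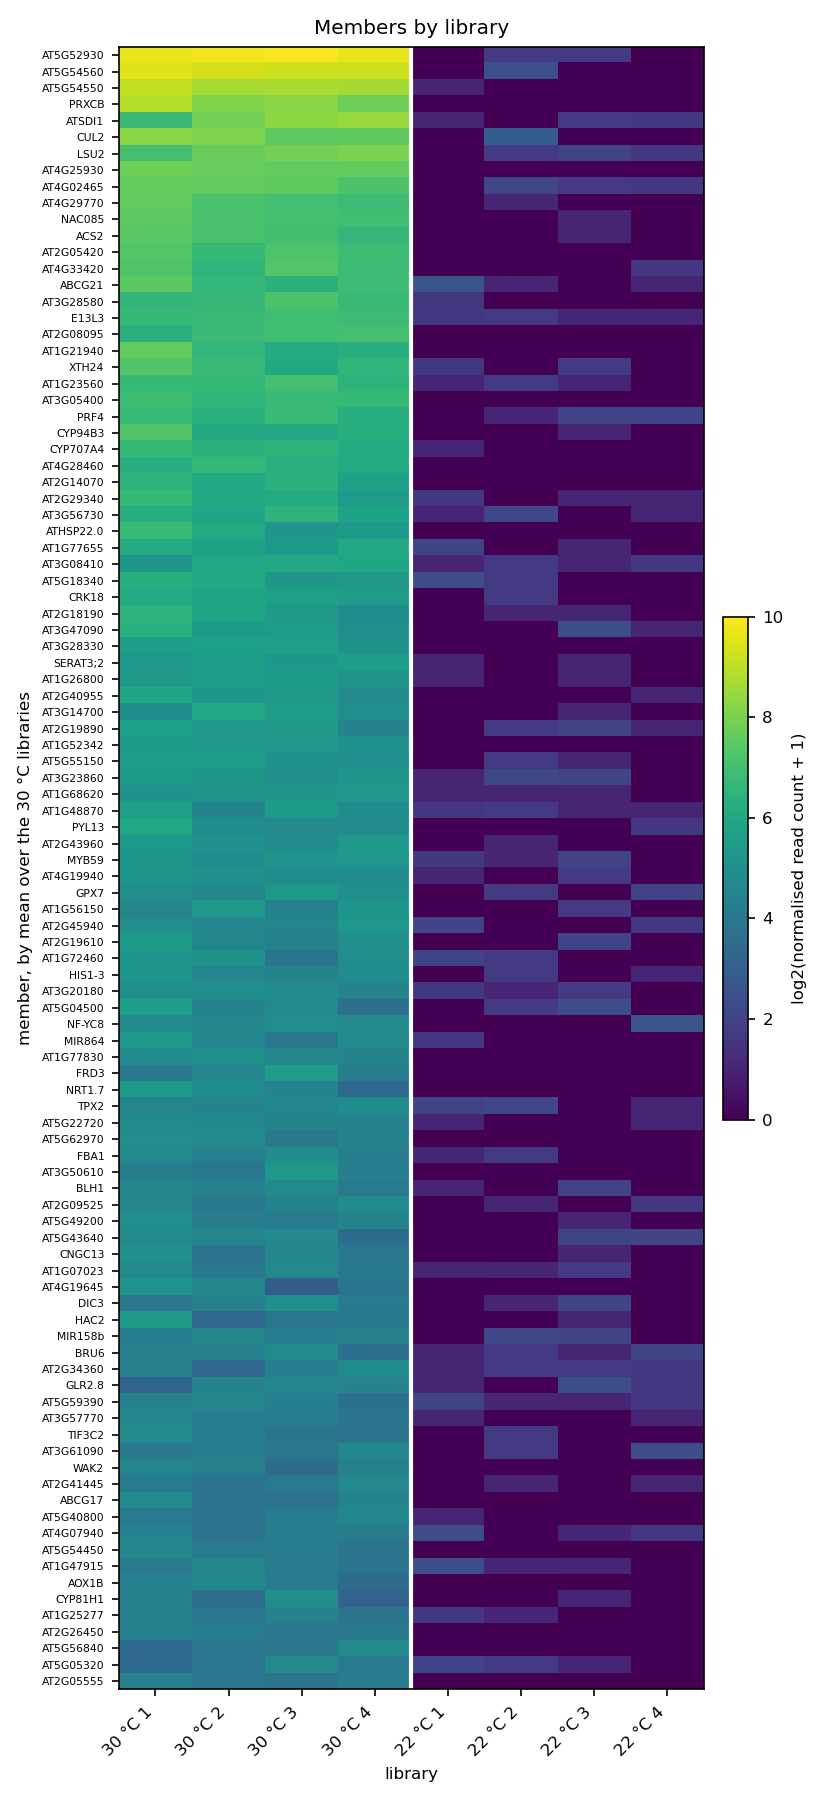
Every member (rows, ordered by mean at high temperature) in the 4 libraries at 30 °C and the 4 at 22 °C (columns). Colour is log2(normalised read count + 1), and the dark right side shows control values of at most a few reads, as the rule requires, beside means of 16.4 to 864 at high temperature.

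In the control 24 members had no read in any of the 4 libraries, 35 had 1 to 3 reads in all and 41 had 4 to 7. The control libraries held 58 to 84 reads of the 100 members together. All 100 members had every high temperature library above every control library, which the rule makes nearly certain, where 32.8% of the tested genes had no overlap in that direction. All 100 also passed the filter on low values used for the tests below, through their high temperature libraries.

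Of the members 93 were protein coding, 4 were long non-coding RNAs, 1 another non-coding RNA and 2 the precursors of the microRNAs MIR864 and MIR158b. The descriptions of 23 read uncharacterized, hypothetical, a domain of unknown function or other RNA. Some of these 23 also named a likeness to a known protein, as for AT5G55150 (F-box SKIP23-like). Genes with 1 exon made up 25.8% of the protein-coding members, 24.7% of 97 protein-coding genes chosen by the mirror rule (silent at high temperature, read in every control library) and 16.0% of the tested protein-coding genes. The median transcript was 1407 bases in the members, 1496 in the mirror genes and 1708.5 in the tested genes. The members were spread over the genome, with 21, 19, 20, 18 and 22 on chromosomes 1 to 5.

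The DUF295 family stood at the head of the list. It gave 7 members, 4 of them among the first 8, all written as hypothetical proteins or, for 1, as an F-box SKIP23-like protein. The annotation places 2 of the 7 (AT5G54550 and AT5G54450) in the mitochondrion and gives no place for the others. AT5G52930 (chr5:21470299-21471861, plus strand, TAIR10.1) had 834.9, 884.2, 948.1 and 788.0 normalised reads at high temperature, against 0, 2.21, 2.13 and 0 in the control. It was the highest member in mean, 864 ± 68.6 (SD, n = 4), and the ratio of the means was 796 (95% counting interval 318 to 2988), an interval that covers the 4 control reads and not the spread between libraries.

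AT5G54560 (chr5:22160931-22162513, plus strand) had 729.9, 654.4, 608.0 and 603.1 at high temperature, against 4.42 in control replicate 2 and 0 in the other three. Its neighbour AT5G54550 (chr5:22158364-22159565, plus strand) had 534.7, 412.3, 428.8 and 399.8 at high temperature, against 1.03 in control replicate 1 and 0 elsewhere. These genes lie 1365 bases apart and were the only members next to each other on a chromosome. Their transcripts were 87.7% identical over 1208 aligned bases, and how the counting treated reads that fit both was not tested.

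AT4G25930 (chr4:13168127-13169393, plus strand) had 222.3, 204.4, 193.4 and 194.6 at high temperature and no control read, a mean at least 256-fold higher against the 3 reads over the group that a count of 0 allows. Its 4 libraries spread less than those of any other member (coefficient of variation 6.56%). The other three members of the family were weaker. AT5G55150 averaged 38.0 ± 8.10 at high temperature and 0.819 ± 1.06 in the control, AT2G45940 29.1 ± 7.77 and 1.30 ± 1.55, and AT5G54450 17.5 ± 4.22 with no control read (SD, n = 4 each).

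Of the 26 DUF295 genes with a value that are not members, 19 passed the filter and were tested with limma on log2(normalised read count + 0.5), with Benjamini-Hochberg adjustment over all 21739 tested genes. Calls needed an adjusted p below 0.05 together with a log2 fold change of 0.58 or more in size, and by these thresholds 20.0% of the tested genes were higher and 17.5% lower at high temperature (37.4% in either direction). Of the 19, 7 were higher (36.8%) and none was lower, although 1 was called lower by DESeq2 and under some other settings, and the median log2 fold change was 1.41, against 0.01 over all tested genes. Of these 19, 3 met both limits of the rule at a lower rank and 2 of them (AT1G27580 and AT5G53230) are among the 7, so that their direction came with the rule. Without such genes 5 of 16 were higher (31.3%), beside 18.4% of all tested genes outside the limits. AT5G52940, named for its place 241 bases downstream of AT5G52930 on the same strand, averaged 2387 ± 123 at high temperature and 7.75 ± 3.52 in the control (SD, n = 4 each). Its log2 fold change was 8.28 ± 0.24 (SE), and it missed membership only through its control mean. AT5G24040, chosen after its values were seen, averaged 86.4 ± 21.2 at high temperature and 6.59 ± 3.92 in the control, a log2 fold change of 3.77. At the other end AT2G17030, also chosen afterwards, had 442 ± 45.2 at high temperature and 446 ± 24.5 in the control, so that the family also held genes read at both temperatures to a like level.

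**Figure D2:**
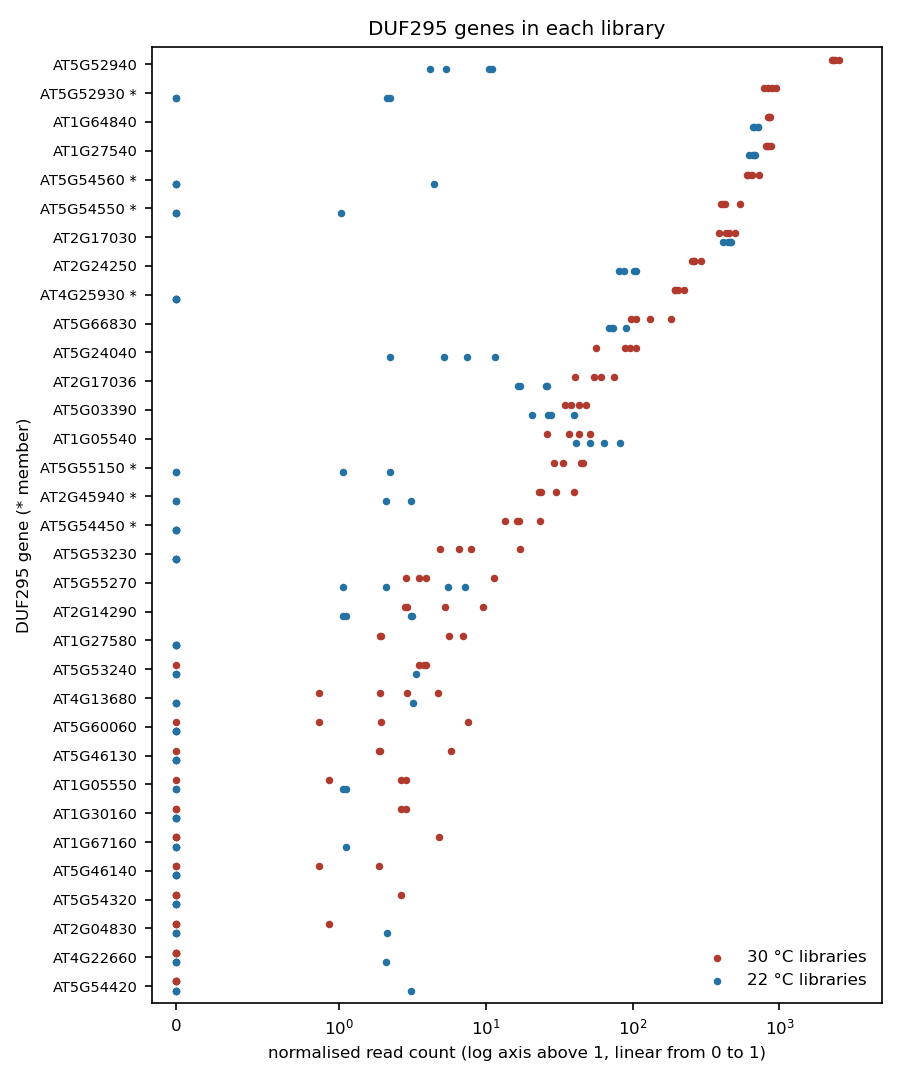
Normalised read counts of the 33 DUF295 genes with a value in each library at 30 °C (upper points) and 22 °C (lower points), on an axis that is logarithmic above 1 and linear below, with members starred. AT5G52940 and AT5G52930 lead at 30 °C, and genes such as AT1G64840 and AT2G17030 lie close together at both temperatures.

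The promoters of the family members were read from the TAIR10.1 genome, since the annotated start sites could be matched by locus for all 93 protein-coding members. The 150 bases before the annotated start of 6 members are shown because they carry the mitochondrial dysfunction motif, written in capitals. They are the 5 DUF295 members that hold it and the alternative oxidase gene AOX1B, the member nearest to the known mitochondrial response. They are given 5′ to 3′ along each gene's own strand, at chr5:21470149-21470298 (plus) for AT5G52930, chr5:22158214-22158363 (plus) for AT5G54550, chr4:13167977-13168126 (plus) for AT4G25930, chr5:22383393-22383542 (minus) for AT5G55150, chr5:22109380-22109529 (minus) for AT5G54450 and chr3:7903947-7904096 (plus) for AOX1B.
AT5G52930: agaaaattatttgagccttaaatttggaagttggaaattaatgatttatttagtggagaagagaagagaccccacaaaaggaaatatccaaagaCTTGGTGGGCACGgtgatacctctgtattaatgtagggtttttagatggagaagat
AT5G54550: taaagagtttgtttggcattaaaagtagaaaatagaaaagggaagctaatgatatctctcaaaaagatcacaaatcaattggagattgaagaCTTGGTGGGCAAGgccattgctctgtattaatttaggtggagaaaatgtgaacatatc
AT4G25930: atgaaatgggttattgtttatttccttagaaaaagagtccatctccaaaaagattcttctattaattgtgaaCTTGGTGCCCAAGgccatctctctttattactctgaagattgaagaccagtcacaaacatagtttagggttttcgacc
AT5G55150: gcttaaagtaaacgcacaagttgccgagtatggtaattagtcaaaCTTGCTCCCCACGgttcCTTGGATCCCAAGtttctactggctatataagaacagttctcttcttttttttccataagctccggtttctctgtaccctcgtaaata
AT5G54450: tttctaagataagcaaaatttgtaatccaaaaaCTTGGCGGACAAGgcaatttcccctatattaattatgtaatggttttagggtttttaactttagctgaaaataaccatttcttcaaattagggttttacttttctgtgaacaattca
AOX1B: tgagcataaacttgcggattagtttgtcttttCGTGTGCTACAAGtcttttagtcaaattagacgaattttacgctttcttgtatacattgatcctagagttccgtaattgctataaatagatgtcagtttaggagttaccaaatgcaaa
The motif began 56, 58 and 78 bases before the start in AT5G52930, AT5G54550 and AT4G25930. In AT5G55150 it was present 2 times, at 105 and 88 bases before the start, and in AT5G54450 it began 117 bases before it. In AOX1B it lay 118 bases before the start on the other strand, so that its letters appear reversed and complemented. The transcripts of AT5G52930, AT5G54550 and AT5G54450 share sequence (75.9% identity between AT5G52930 and AT5G54450 over 992 bases), so the 5 DUF295 promoters are not 5 independent cases. No like alignment is given here for AT4G25930 and AT5G55150, which are of the same family.

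Over the window of 250 bases before to 50 after the start, on either strand, 15 of the 93 protein-coding members held the motif in one of its forms (16.1%). The same window held it in 1.42% of 27443 protein-coding genes and in 1 of 97 mirror genes (1.03%). Of the 7 DUF295 members 5 held it, and AT5G54560 and AT2G45940 did not. Of the 26 DUF295 genes with a value that are not members 5 held it as well (19.2%), of which AT5G24040 and AT5G53230 were called higher at high temperature and the other three were not. Without the DUF295 members the share was 10 of 86 (11.6%). The form ending in CAAG was found in 11 members (11.8%, against 0.9% of all promoters) and the form ending in CACG in 5 (5.4%, against 0.5%), with AT5G55150 holding both.

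The other 9 members with the motif beside AOX1B, all picked out by this search, were AT3G28580, AT1G23560, AT4G28460, AT3G14700, AT3G20180, HAC2, AT5G59390, AT2G41445 and AT2G26450. They were of unlike kinds. AT3G28580, of the P-loop ATPase family to which OM66 also belongs, had 94.8, 100.9, 148.7 and 105.5 normalised reads at high temperature, against 2.07 in control replicate 1 and 0 elsewhere. HAC2, a histone acetyltransferase, had 40.3, 8.77, 14.3 and 15.5 at high temperature, against 1.07 in control replicate 3 and 0 elsewhere, and its first library stood above the other three.

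The share of promoters with the motif was 2.42% in the 455 protein-coding genes that met the same limits with a lower rank. It was 2.41% in the other tested genes called higher at high temperature, 0.94% in those not called and 0.87% in those called lower. Among 51 other genes called higher with a log2 fold change of at least 5, a limit set after these values were seen, 16 held it (31.4%). Genes outside the list whose change was large thus also held the motif in part.

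**Figure D3:**
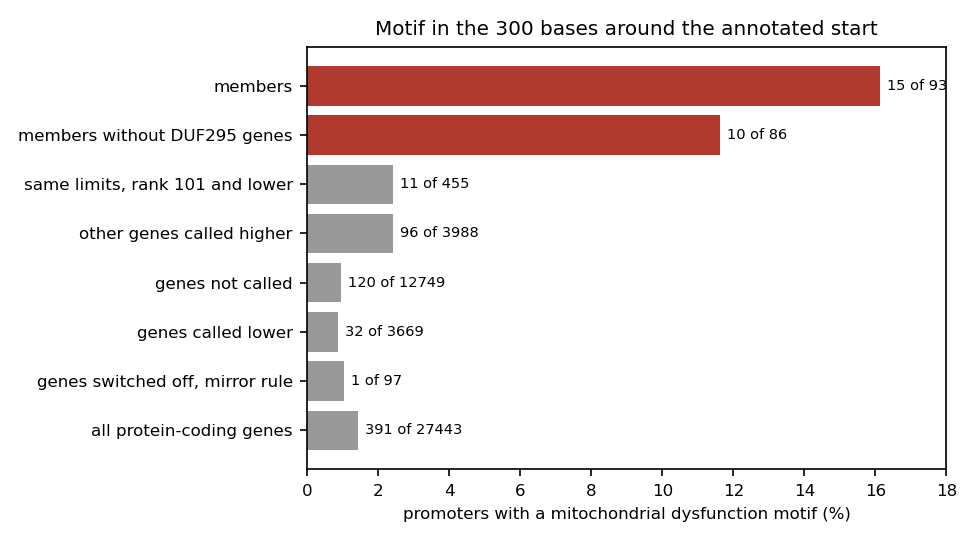
Share of protein-coding genes whose window of 300 bases around the annotated start holds a mitochondrial dysfunction motif, with the counts beside each bar. The members (16.1%) and the members without the DUF295 genes (11.6%) stand above the other sets drawn, which lie between 0.87% and 2.42%. Among sets not drawn, the DUF295 members (5 of 7, 71.4%) and the 25 members with the highest mean at high temperature (5 of 24 promoters, 20.8%) were higher still. So were the other DUF295 genes (19.2%) and the other genes with a log2 fold change of at least 5 (31.4%).

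The remaining motifs did not set the members apart to that degree. The heat shock element of 2 units, GAA and TTC with 2 free bases between, lay in 9 of the 93 promoters (9.7%), against 11.6% of all promoters, and the element of 3 units, GAA, TTC and GAA with 2 free bases between each, in none (0.5% of all). The 3-unit element contains the 2-unit one. The G-box CACGTG was in 3 (3.2%, against 7.7%), the W-box core TTGACC in 13 (14.0%, against 14.2%), the TGA core TGACG in 26 (28.0%, against 23.1%) and the TATA box TATAAA in 49 (52.7%, against 52.1%). A match is a run of letters and not a bound site.

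Known genes of the mitochondrial response that are not members were examined as a list. Of 17, 16 were higher and none was lower in the limma fit, against 20.0% and 17.5% of all tested genes. Their median log2 fold change was 3.78. AT2G04070 met both limits of the rule, so that its direction came with the rule. Without it 15 of 16 were higher, beside 18.4% of all tested genes outside the limits. AT12CYS-2, a small mitochondrial cysteine-rich protein gene, averaged 13855 ± 142 at high temperature and 16.3 ± 8.35 in the control (log2 fold change 9.87 ± 0.30, SE). AT2G04050, a MATE transporter gene, averaged 10911 ± 1292 at high temperature and 29.4 ± 14.6 in the control (8.65 ± 0.27). UPOX, another small mitochondrial protein gene, rose by 7.09 ± 0.07 and AT5G43450, of the 2-oxoglutarate dioxygenases, by 7.03 ± 0.27 on the same scale. NAC017, the gene without a call, and NAC013 are named for their roles, after their values were seen. NAC017 stood at 2112 ± 93.5 at high temperature and 2264 ± 38.7 in the control, whereas NAC013 was higher (log2 fold change 4.17 ± 0.08, SE). AT2G04070 was the one gene of the list with no control read, and its mean of 5.64 ± 2.81 at high temperature lay below that of the last member.

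AOX1B, an alternative oxidase of the inner mitochondrial membrane that passes electrons to oxygen without pumping protons, was the member closest to this list and was chosen after its values were seen. It had 19.7, 22.8, 16.2 and 10.6 normalised reads at high temperature and no control read, at least 21.8-fold higher against 3 reads over the group. AOX1A, the family's main stress gene, starts 944 bases downstream of it on the same strand and averaged 21932 ± 1886 at high temperature and 2320 ± 32.9 in the control (log2 fold change 3.24 ± 0.05, SE). The part of AOX1A reads in the values of AOX1B was not tested. The groups of AOX1B did not overlap, which the rule made certain for a member without a control read. AOX1C, a sequence relative of AOX1B (87.5% identity over 960 bases), averaged 107 ± 18.1 at high temperature and 19.5 ± 7.87 in the control.

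Among the heat shock genes 1 member was found. HSP22 (AT4G10250), a small heat shock protein of the endoplasmic reticulum, had 105.1, 68.4, 36.2 and 42.6 normalised reads at high temperature and none in the control, at least 79.2-fold higher against 3 reads over the group. Replicate 1 stood at 2.90 times replicate 3 in this gene. Of the other small heat shock proteins 11 of 13 tested were higher and none was lower, beside 20.0% and 17.5% of all tested genes. HSP23.6, a mitochondrial one, averaged 6176 ± 1580 at high temperature and 2.16 ± 2.68 in the control (log2 fold change 11.95 ± 0.63, SE), which placed it just outside the control limit of 2. HSP17.6II (7.32 ± 0.34), HSP17.6A (7.27 ± 0.67) and HSP23.5 (5.83 ± 0.06) followed, while HSP18.2, named after its values were seen, had 17.59 ± 7.60 at high temperature and 14.3 ± 7.80 in the control. Of the 11 heat shock factors listed, which are not the whole family, 5 were higher (45.5%, against the same 20.0%). They were led by HSFA3 (2.32 ± 0.22), HSFA2 (2.08 ± 0.13), HSFB1 (1.51 ± 0.10) and HSFA7A (1.29 ± 0.20). HSFA1E, named because it was the single listed one that was lower, had a log2 fold change of -0.64. That call was lost when every library was rescaled to the same total. None of the listed factors was a member.

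SDI1 and LSU2, both among the first 7, are known from sulfur starvation, and they are described with BGLU28 and SERAT3;2, which were chosen after their values were seen. SDI1 (AT5G48850, chr5:19805437-19807853, minus strand), which is induced by sulfur deficiency and restrains glucosinolate synthesis, had 112.6, 237.7, 315.4 and 347.5 normalised reads at high temperature, against 1.03, 0, 2.13 and 2.09 in the control. LSU2 (response to low sulfur 2, chr5:8443279-8444101, minus strand) had 131.3, 205.3, 242.0 and 262.3 at high temperature, against 0, 2.21, 3.20 and 2.09 in the control. Both genes were lowest in replicate 1 and highest in replicate 4 at high temperature. BGLU28, a beta-glucosidase gene known from sulfur starvation, ordered its libraries alike, with 60.0, 350.9, 438.3 and 733.8 at high temperature, against 2.07, 4.42, 3.20 and 0 in the control, and its control mean of 2.42 kept it out of the members. SERAT3;2, a serine acetyltransferase in cysteine synthesis, was more even, at 39.4, 46.5, 37.2 and 47.4 at high temperature, against 1.03, 0, 1.07 and 0 in the control.

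The class III peroxidases, which use hydrogen peroxide in the cell wall, gave 2 members. PRXCB (AT3G49120, chr3:18207651-18210333, plus strand) had 473.8, 276.3, 305.9 and 223.6 normalised reads at high temperature and no control read, at least 402-fold higher against 3 reads over the group. AT4G33420 had 152.0, 92.1, 160.1 and 113.3 at high temperature, against 2.09 in control replicate 4 and 0 elsewhere. Of the family's 49 other tested genes 10 were higher (20.4%) and 17 lower (34.7%), beside 20.0% and 17.5% of all tested genes. Without the 2 that met the limits of the rule 9 of 47 were higher (19.1%), beside 18.4% of all tested genes outside the limits. PRXCA, the neighbour of PRXCB at 4385 bases, averaged 17.55 ± 7.77 at high temperature and 4.54 ± 1.65 in the control (log2 fold change 1.77, adjusted p = 0.00405, limma).

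The cytochrome P450 family gave 3 members. CYP94B3, which oxidises the active jasmonate, had 152.9, 64.9, 64.8 and 75.5 at high temperature, against 1.07 in control replicate 3 and 0 elsewhere. CYP707A4, an abscisic acid 8′-hydroxylase, had 104.1, 84.2, 89.6 and 70.7 at high temperature, against 1.03 in control replicate 1 and 0 elsewhere. CYP81H1, whose substrate is not established, was near the foot of the list at 17.3 ± 9.78 at high temperature and 0.266 ± 0.533 in the control (SD, n = 4 each). Of 145 other tested P450 genes 44 were higher (30.3%) and 31 lower (21.4%), beside 20.0% and 17.5% of all tested genes. Without the 9 that met the limits of the rule 37 of 136 were higher (27.2%), beside 18.4% of all tested genes outside the limits. Both hormone-degrading enzymes stood beside other hormone genes in the list, picked out after their values were seen. ACS2, an enzyme of ethylene precursor synthesis, had 174.5, 137.7, 125.8 and 98.7 at high temperature, against 1.07 in control replicate 3 and 0 elsewhere, and PYL13, of the abscisic acid receptor family, had 61.0, 28.1, 24.8 and 27.1, against 2.09 in control replicate 4 and 0 elsewhere.

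The protein turnover genes were led by CUL2 (chr1:677360-681378, plus strand), a cullin, the kind of protein that holds ubiquitin ligases together. It had 302.1, 265.8, 182.0 and 185.9 at high temperature, against 6.63 in control replicate 2 and 0 in the other three, so that all 6 of its control reads lay in 1 library. Its relative CUL1 (76.4% identity over 2210 bases) was at 10150 normalised reads at high temperature and 10057 in the control. F-box proteins, the substrate-choosing subunits of such ligases, gave 5 members by description, of which AT3G28330 was the highest, at 46.9, 50.0, 49.6 and 32.9 at high temperature and no control read. After it came AT5G55150, given above with the DUF295 genes, AT4G19940 at 31.4 ± 5.28 at high temperature and 0.791 ± 1.02 in the control, and AT5G22720 at 23.3 ± 2.65 and 0.520 ± 0.601. Of 244 other tested F-box genes 104 were higher (42.6%) and 13 lower (5.33%), beside 20.0% and 17.5% of all tested genes. Of these 244, 23 met the limits of the rule at a lower rank, and without them 84 of 221 were higher (38.0%), beside 18.4% of all tested genes outside the limits.

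NAC085 (chr5:4670289-4672958, minus strand), a transcription factor known from the arrest of the cell cycle after DNA damage, had 181.1, 138.6, 132.5 and 121.0 at high temperature, against 1.07 in control replicate 3 and 0 elsewhere. Its sequence relative NAC044, named as such and known from the same response, averaged 1349 at high temperature and 78.2 in the control. NAC044 was called higher (log2 fold change 4.14). AT4G29770 (chr4:14575718-14577643, plus strand), a target of trans-acting small RNAs, had 195.1, 144.7, 126.7 and 115.2 at high temperature, against 1.11 in control replicate 2 and 0 elsewhere. In both genes replicate 1 was the highest library and replicate 4 the lowest.

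Transporters were found in several families. ABCG21, a half-size ABC transporter, had 175.4, 98.2, 84.8 and 119.1 at high temperature, against 5.17, 1.11, 0 and 1.05 in the control, so that most of its control reads lay in control replicate 1. FRD3, a MATE transporter that loads citrate into the xylem and thereby moves iron, had 15.01, 22.8, 45.7 and 17.43 at high temperature and no control read, with replicate 3 above the other three. The other MATE member, AT2G34360, averaged 18.9 ± 7.90 at high temperature and 1.87 ± 0.558 in the control. Of 45 other tested MATE genes 14 were higher (31.1%) and 11 lower (24.4%), beside 20.0% and 17.5% of all tested genes. Without the 4 that met the limits of the rule 12 of 41 were higher (29.3%), beside 18.4% of all tested genes outside the limits. Genes described as P-loop nucleoside triphosphate hydrolases or AAA ATPases gave AT3G28580, described above, and AT2G18190, at 53.8 ± 25.3 at high temperature and 0.543 ± 0.627 in the control. AT2G18193, a relative of AT2G18190 (84.4% identity over 1498 bases), was at 17621 at high temperature and 2422 in the control. How the counting treated reads that fit both was not tested. Of the 174 others with such descriptions, which name a broad superfamily, 34 were higher (19.5%) and 31 lower (17.82%), close to the shares of all tested genes. Without the 3 that met the limits 31 of 171 were higher (18.1%).

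The rest of the first 15 were genes of less known roles. AT2G05420, of the TRAF-like proteins, had 157.6, 101.8, 149.6 and 119.1 at high temperature and no control read. AT4G02465 (chr4:1080962-1081680, plus strand), an uncharacterized gene, had 197.0, 194.7, 188.7 and 147.1 at high temperature, against 0, 3.32, 2.13 and 2.09 in the control. HIS1-3, a linker histone known from drought, and XTH24, a cell wall enzyme that cuts and joins xyloglucan, are named after their values were seen. XTH24 had 154.8, 107.0, 65.8 and 92.9 at high temperature, against 2.07, 0, 2.13 and 0 in the control, and HIS1-3 averaged 27.6 ± 6.99 at high temperature and 0.815 ± 1.05 in the control.

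The members varied among the 4 high temperature libraries more than other genes of their range. The median coefficient of variation was 24.6% in the members (6.56% to 71.2%) and 9.38% in the 9672 other tested genes between the lowest and highest member mean. The other genes had more reads, and counting error alone gave a median of 16.9% in the members and 5.86% in the others. In 39 members the highest library was at least 2 times the lowest and in 9 at least 3 times. Replicate 1 was the highest library for 53 of the 100 members, where it was the highest for 33.1% of the other genes in that range, and replicate 4 was the lowest for 41, against 27.7%. The summed values of the members were 8515, 7251, 7452 and 6764 in the high temperature libraries. As given above, SDI1, LSU2 and BGLU28 had their lowest value in replicate 1.

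**Figure D4:**
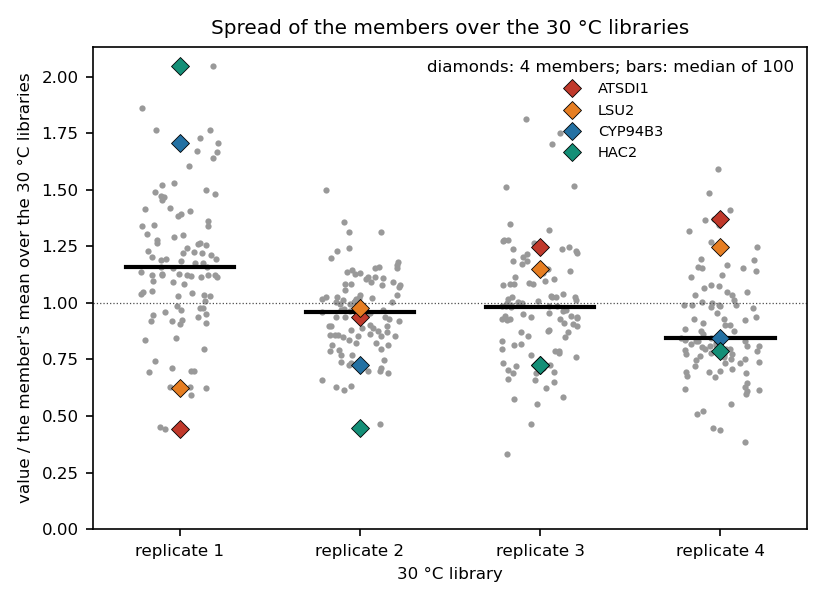
Value of each member in each high temperature library divided by the member's mean over the 4 libraries (points), with the median of the 100 members (bars) at 1.16, 0.958, 0.983 and 0.843. Diamonds mark SDI1 and LSU2, low in replicate 1, and CYP94B3 and HAC2, high in it.

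The genes next to the members were also compared. Of 178 tested nearest neighbours that are not members, 51 were higher (28.7%) and 21 lower (11.8%) at high temperature, beside 20.0% and 17.5% of all tested genes, and 10 were lower when every library was rescaled to the same total. The share of higher genes was 38.6% (22 of 57) among upstream neighbours on the same strand, 30.3% (10 of 33) upstream on the other strand, 24.5% (12 of 49) downstream on the same strand and 17.9% (7 of 39) downstream on the other. The difference between these places was not tested. Without the 9 of the 178 that met the limits of the rule 46 of 169 were higher (27.2%), beside 18.4% of all tested genes outside the limits. BGLU28 lay 781 bases upstream of the member AT2G09525, a non-coding RNA with 22.5, 14.9, 21.0 and 27.1 at high temperature, against 0, 1.11, 0 and 2.09 in the control. TRI, a tropinone reductase gene, lay 579 bases upstream of the member AT2G29340 and averaged 1042 ± 114 at high temperature and 101.7 ± 26.9 in the control (log2 fold change 3.38 ± 0.15, SE). AT3G54530, an uncharacterized gene 347 bases from the non-coding member AT3G08410, averaged 7339 ± 281 at high temperature and 29.1 ± 4.87 in the control. These 3 neighbours were chosen after their values were seen.

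Of the members 17 overlapped another annotated gene, 14 of them one with a value. The libraries were directional, but whether reads were counted by strand is not stated in the study's methods, and reads of an overlapping gene cannot be told apart from the member's. AT1G23560, named because its partner was called higher too, had 102.3, 99.1, 129.6 and 87.1 at high temperature, against 1.03, 2.21, 1.07 and 0 in the control. It shared 177 bases with SRO2 on the other strand, which averaged 393 ± 31.7 at high temperature and 32.7 ± 2.40 in the control (log2 fold change 3.57 ± 0.13, SE), and the part of SRO2 reads in its values was not tested. SERAT3;2 shared 144 bases with PSAT on the other strand, which was at 6163 at high temperature and 7834 in the control, and AT4G33420 shared 78 bases with BAK1, at 4021 and 3160. CUL2, AT4G02465, CYP81H1 and AT2G45940 also overlapped a gene with a value on the other strand, by 48, 10, 150 and 2 bases. Another annotated transcript was at least 95% identical over at least 100 bases for 5 members. For GPX7, BLH1 and AT3G57770, picked out by this search, it was that of a gene overlapping the member on the other strand. For AT2G40955 and AT2G05555 it lay elsewhere in the genome, and their values are uncertain for that reason. For TIF3C2, chosen after its values were seen, a translation factor subunit gene with 18.1 ± 6.49 at high temperature and 0.553 ± 1.11 in the control, the relative EIF3C (82.4% identity over 1820 bases) was at 16594 and 19086.

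A relative aligned over most of the transcript was found for 58 members. Of the 35 such relatives that are not members and were tested, 15 were higher (42.9%) and 5 lower, beside 20.0% and 17.5% of all tested genes. Without the 2 that met the limits of the rule 14 of 33 were higher (42.4%), beside 18.4% of all tested genes outside the limits. The relatives did not all follow the member. AT3G05400, chosen after its values were seen, a transporter of the major facilitator superfamily, averaged 104 at high temperature with no control read, while its relative AT3G05155 averaged 3.81 at high temperature and 269 in the control.

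The last member inside the rank was AT2G05555, a non-coding RNA, with 20.6, 14.04, 13.3 and 17.43 at high temperature and no control read (mean 16.4). The first gene outside it was AT1G44414, with 29.1, 14.9, 6.67 and 13.6 at high temperature, against 0, 1.11, 0 and 3.14 in the control (mean 16.1 at high temperature). At the control limit the last gene inside was AT3G23860, with a control mean of 1.89, and the first outside was AT3G49460, at 19.8 at high temperature and 2.09 in the control. LAC3 and PER64, a laccase and a peroxidase gene known from the endodermis, failed the limit at high temperature, since each had a library at 0. LAC3 had 10.3, 0, 65.8 and 0 and PER64 8.44, 2.63, 56.2 and 0 at high temperature, so that replicate 3 carried most of their reads.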

How the data were processed

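Poly(A) RNA from 8 root tip libraries, 4 at high temperature and 4 control, was sequenced as directional libraries. Reads were aligned by the authors with HISAT2 to TAIR10 and turned into gene values with DESeq2. Their versions, and the program that counted reads, were "not given in the sources used here". The deposited signal values are normalised read counts, the reads of a gene divided by a size factor of the library by the authors, and the deposited FPKM values were computed by the authors per transcript length and depth. Size factors were recovered from the low values, and 100% of values became whole reads within 0.01.

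Genes with a mean of at least 1 (21739 of 23632) were tested with limma 3.58.1 (trend, R 4.3.3) on log2(value + 0.5), with Benjamini-Hochberg adjustment. Such fold changes understate those of low genes. edgeR 4.0.16 and DESeq2 1.42.0 on the recovered reads, leave-one-out fits and other filters, pseudocounts and scalings were alternatives. The fit was tested on simulated data. Folds of members with control reads are ratios of means with an exact 95% counting interval, and those without are set against 3 reads over the group. Both cover counting error only.

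Genes were matched by locus tag to TAIR10.1 (23479 of 23632, and all 100 members), which gave coordinates, descriptions and promoters. Transcripts were aligned with blastn 2.17.0. The members, gene lists, families and motifs were chosen with earlier results of these data known. Genes named were the 15 highest members, members of a listed pathway, up to 4 per family with at least 2 members, adjacent members, genes at each limit, and up to 4 changed genes per pathway list. Any other is said to have been chosen afterwards. Counts without genes that met the limits of the rule were added after seeing the data. The labels do not say whether replicates came from separate experiments, so p-values measure the spread between these libraries.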

Additional observations from a re-analysis of the deposited data

Results flagged for a closer look

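The 28 members chosen by the naming rule were looked at for a high temperature library far from the other three, by the gap to the nearest library over the whole range (Dixon). AT4G02465 had 147.1 normalised reads in replicate 4, below 197.0, 194.7 and 188.7 in replicates 1 to 3 (ratio 0.833). CYP94B3 had 152.9 in replicate 1, above 64.9, 64.8 and 75.5 in replicates 2 to 4 (ratio 0.878). Chance flags about 1 in 20 groups.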

How the results depend on the processing

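Without a fold threshold 7798 of the tested genes were higher and 7657 lower, where 4344 and 3797 were with it. The genes of the pathway lists that were lower then numbered 3 (main value 1), those of the families 175 (103), and the neighbours 88 higher (51) and 49 lower (21). With every library rescaled to one total the pathway genes that were lower numbered 0 and such neighbours 10. That scaling moved the median log2 fold change to 0.21 (0.01 otherwise) and the share of calls that were higher to 69.7% (53.4%), and the higher share became 38.8% of neighbours and 47.4% of DUF295 genes, beside 27.4% of all tested genes. Of the 100 members, 59 were shared with a rule that set the control mean below 1, 48 with one that set it below 5 and 64 with one that ranked by FPKM. Leaving out each library in turn gave 4073 to 4310 genes higher and 3620 to 3841 lower, 32 to 34 pathway genes higher, 191 to 209 family genes higher and 93 to 104 lower, 52 to 57 neighbours higher and 19 to 23 lower, 6 to 9 DUF295 genes higher and 0 to 1 lower, 87 to 98 shared members and 14 to 17 members with the motif. edgeR called 4412 higher and 3636 lower, and DESeq2 4203 and 3706.

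Deviations from the group means of same-numbered libraries correlated at 0.003 to 0.077, and not every library correlated best with its own number, so the numbers were not taken as pairs. With the replicate block 4300 genes were higher and 3762 lower. A chosen set of 21 genes that are not members kept their direction and call in all 378 alternatives. Other named genes that are not members lay outside this set. Among them the heat shock factor called lower lost its call when every library was rescaled to the same total, as given above. Control values of a few reads limit every ratio of a member.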
